A study of Mus musculus with 10 samples.

Results

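Replication-dependent histone genes were examined in the mouse myoblast line C2C12, which can differentiate into myotubes, after transfection with a mimic of miR-27a-3p. A member was any gene whose name in the scanner files begins with Hist1h, Hist2h, Hist3h or Hist4h. The array carried 45 such names, of 34650 gene names in all, on 52 probes, and each gene was represented by its brightest probe. Of these, 31 had a probe that the scanner software marked as well above background in 4 or more of the 10 files and were analysed, among 13091 genes tested. The mimic group had 6 files and the scramble group 4. All cells were C2C12 myoblasts transfected with Lipofectamine 2000 at 150 nM of a mirVana miRNA mimic or of a scrambled sequence, and RNA was taken after 72 h with a transfection efficiency given as 60%. Each difference is mimic minus scramble, since untransfected cultures were not analysed here, and it averages over transfected and untransfected cells of 1 line.

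The proteins of this family package DNA. Pairs of H2A, H2B, H3 and H4 form the nucleosome core, and H1 binds the linker DNA between cores. Their genes lie in clusters, have no introns and are transcribed mainly in S phase, when new DNA must be packaged. Their mRNAs mostly end in a stem-loop instead of a poly(A) tail. The stem-loop-binding protein, encoded by Slbp, governs their processing, translation and decay. When myoblasts leave the cell cycle to differentiate, these mRNAs normally decline, and some of the genes then yield polyadenylated transcripts. Labelling kits of the kind used here prime from poly(A), so the arrays read the tailed or otherwise primed part of each histone mRNA pool, and how large that part was is not measured here.

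The microRNA supplied by the mimic has this mature sequence in RefSeq (chr8:84208727-84208747, GRCm38.p6, plus strand), with the seed, bases 2 to 8, in capitals.
miR-27a-3p: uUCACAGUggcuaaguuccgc
The complement of the seed, ACTGTGA, occurred in 0 of the 45 chosen histone probes and in 0.817% of all probes on the array. The probes are 60 bases long and cover little of each transcript, so this says nothing of the rest of the mRNAs.

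Many histone genes differ by only a few bases, which sets how far single members can be told apart. Aligned without gaps over at least 40 bases, probes of 6 H2A genes were linked by identities of 90% or more. The 5 of them that end in the stop codon are shown here, on mm9 and read 5′ to 3′, with capitals where a base differs from the Hist1h2af probe. They lie at chr13:23626113-23626172 (plus strand), chr13:22127035-22127094 (minus), chr13:21845304-21845363 (minus), chr13:21902669-21902728 (plus) and chr3:96043781-96043840 (minus), in the order printed.
Hist1h2af: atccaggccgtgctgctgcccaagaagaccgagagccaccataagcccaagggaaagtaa
Hist1h2ah: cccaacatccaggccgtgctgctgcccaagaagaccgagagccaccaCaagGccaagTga
Hist1h2ak: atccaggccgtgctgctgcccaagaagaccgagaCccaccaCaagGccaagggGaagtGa
Hist1h2an: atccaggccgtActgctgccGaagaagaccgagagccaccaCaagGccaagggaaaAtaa
Hist2h2aa2: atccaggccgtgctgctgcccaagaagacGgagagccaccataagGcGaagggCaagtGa
The probe of Hist1h2ah differed from that of Hist1h2af at 3 of 54 aligned bases, and each of the other three at 5 of 60. Hist1h2ag, whose position in the files spans 59681 bases and not 60, completed the group. Labelled RNA of one of these genes can bind the probes of the others, so their values are uncertain one by one and are not independent. Counted so, the 31 members came from 26 groups of probes. The Hist1h2ao probe, at chr13:21902695-21902754 (plus), was counted apart. Its position overlaps that of Hist1h2an by fewer than the 40 bases required, so the comparison could not link them.

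Other probes reach the 3′ stem-loop itself. It was found in the probes of 5 members, and the stretches below show it with the paired bases of the stem in capitals around a loop of 4.
Hist2h2bb: caaaaGGCTCTtttcAGAGCCactt
Hist1h3g: ttaaaGGCTCTtcttAGAGCCaccc
Hist1h4m: ctaaaGGCCCTtttcAGGGCCatcc
Hist1h3a: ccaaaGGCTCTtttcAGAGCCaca
Hist1h3i: caaaaGGCTCTtttcAGAGCCccct
These stretches lie on mm9 at chr3:96074089-96074113 (plus strand), chr13:23627753-23627777 (plus), chr13:21903993-21904017 (plus), chr13:23853756-23853779 (minus) and chr13:21874785-21874809 (minus), in the same order. The same pattern, a stem of 6 paired bases beginning with GGC, was held by 0.0269% of all probes. Of the 5, Hist1h3a and Hist1h3i did not pass the filter on dim probes, and Hist1h3g and Hist1h4m were well above background in only 6 and 4 of the 10 files.

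The 10 files came from 1 slide with 5 array positions, each scanned at 2 times. Non-uniform spots overlapped between the files of 1 position (21 to 75 in common) and in no other pair (0 in common), although the design text speaks of 6 and 4 transfections repeated independently. Files of a position were therefore averaged, which left n = 3 mimic arrays and n = 2 scramble arrays. The scanner software marked 27.04% to 35.29% of spots per file as well above background, and their median signal was 428 to 783. No spot other than controls was saturated. The number of arrays limits the precision. Whether the arrays carry separate transfections is not settled by the files, so the p-values cover array-to-array spread that could be technical. Levels are given as log2 of the processed signal minus the 75th percentile of the array, so 0 is a bright probe and -4 a dim one, and they compare arrays for 1 probe, never 1 probe with another.

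None of the 31 members passed the test after adjustment over all genes, although most of their differences were positive. By limma with Benjamini-Hochberg adjustment over the 13091 genes, 0 members were called higher and 0 lower at an adjusted p under 0.05, where 5.12% of all genes were called, 2.76% higher and 2.36% lower. The smallest adjusted p of a member was 0.065. An eBayes fit with trend and robust settings called 1 member, Hist1h2bc, as higher, where 422 of 13091 genes were. Before adjustment, p was under 0.05 for 10 members with a positive and 1 with a negative difference, where 11.2% and 14.1% of all genes stood. The difference was positive for 22 members and negative for 9, and 45.3% of all genes tested had a positive one. The median difference was 0.34 on the log2 scale for the members and -0.05 for all genes tested.

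Every mimic array lay above every scramble array for 15 members, or 48.4%, where 19.8% of all genes did so (45.6% in either direction). Every mimic array lay below for 3 members, or 9.68%, where 25.8% of all genes did so. In bulk RNA, fewer cells with a transcript and less of it per cell cannot be told apart.

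**Figure D1:**
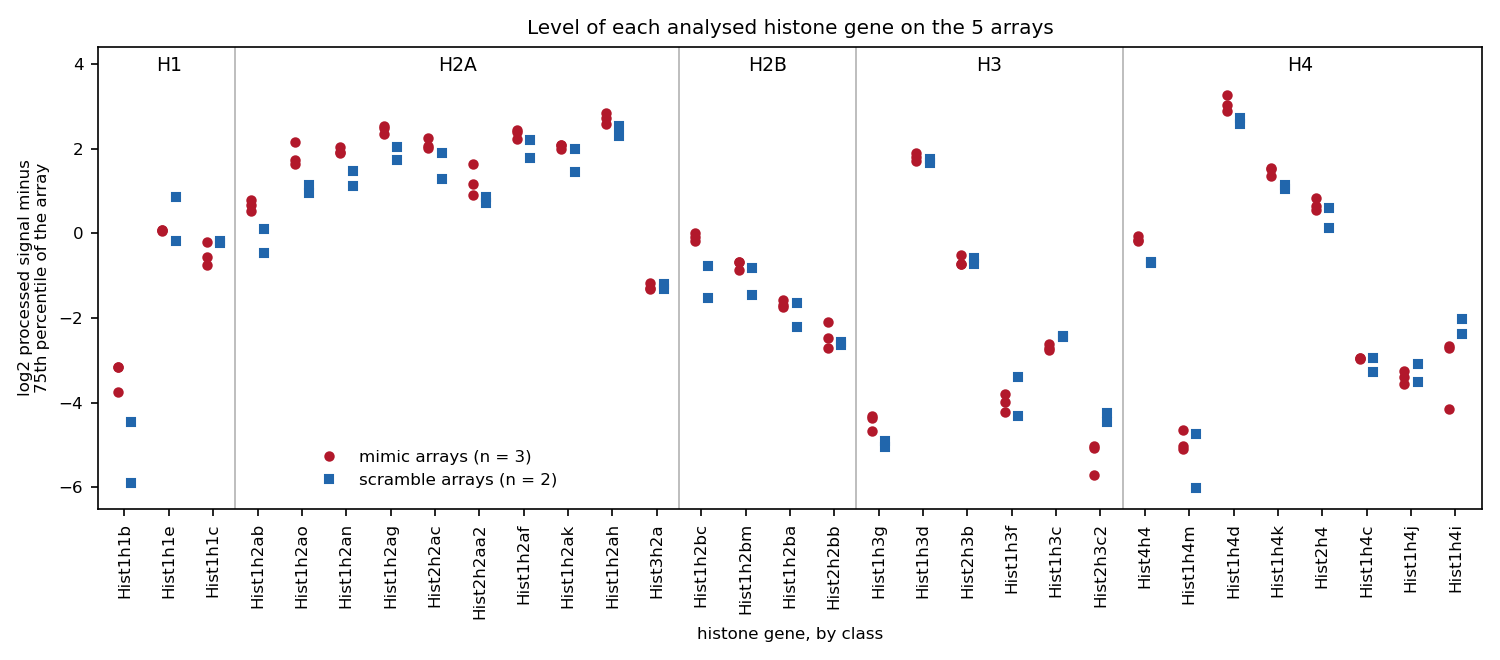
Each point is 1 array; the vertical axis gives log2 processed signal minus the 75th percentile of the array, and genes run along the horizontal axis by class and falling difference. Most H2A genes had all 3 mimic arrays above both scramble arrays, whereas H3 genes lay on both sides.

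The H2A genes, which encode a core histone, were mostly higher on the mimic arrays without passing the test. Of the 12 on the array 10 were analysed, and 9 of them had a positive difference. In those 9 every mimic array lay above every scramble array, where 19.8% of all genes did so. The class median was 0.49, none was called, and the adjusted p ran from 0.077 to 0.96. Without scramble array 2 the median was 0.30, with 10 of 10 positive, and without scramble array 1 it was 0.66. Because 6 of these 10 probes are the near-identical ones shown above, the 9 are not 9 separate observations. The Hist1h2ao probe also overlaps that of Hist1h2an in position.

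Hist1h2ab had the largest difference of the class. Its level was 0.67, 0.79 and 0.54 on the mimic arrays, against 0.09 and -0.47 on the scramble arrays. The groups did not overlap, and scramble array 2 was the lowest of the 5. The difference was 0.85 ± 0.21 (SE), a ratio of 1.81, with a 95% interval of 0.34 to 1.37 and a limma adjusted p of 0.077.

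Hist1h2ah, among the near-identical probes, differed less. It read 2.72, 2.59 and 2.84 on the mimic arrays, against 2.54 and 2.29 on the scramble arrays. The lowest mimic array and the higher scramble array almost met. The difference of 0.30 had an interval of -0.08 to 0.69 and a limma adjusted p of 0.28. Within the near-identical group of 6, differences ran from this 0.30 to 0.66 for Hist1h2an, all positive.

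Hist3h2a lies outside both large clusters, on chromosome 11 (chr11:58768954-58769013, mm9), and was the exception among H2A genes. Its level was -1.30, -1.32 and -1.17 on the mimic arrays, against -1.31 and -1.19 on the scramble arrays. The groups overlapped fully. The difference was -0.01 with an interval of -0.35 to 0.33, and it kept its sign in only 12 of 19 alternatives, which ranged from -0.09 to 0.14.

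All 4 analysed H2B genes, partners of H2A in the core, had positive differences, with a median of 0.33 and no call. Without scramble array 1 the median was 0.15 with 3 of 4 positive, Hist1h2ba turning to -0.01, and without scramble array 2 it was 0.62. The array carried 10 names of this class, and 6 of them stayed below the filter on dim probes. In 1 of the 4, Hist1h2bc, every mimic array lay above every scramble array, where 19.8% of all genes did so.

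Hist1h2bc (chr13:23784254-23784313, mm9) had the smallest adjusted p of all members. It read -0.08, 0.02 and -0.17 on the mimic arrays, against -0.78 and -1.53 on the scramble arrays. The mimic arrays lay close together, whereas the scramble arrays were 0.76 apart. The difference was 1.07 ± 0.24 (SE), a ratio of 2.11, with an interval of 0.48 to 1.67 and a limma adjusted p of 0.065. It was 1.45 against scramble array 2 and 0.70 against scramble array 1, and each of these values rests on 1 scramble array.

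The other named H2B genes were Hist1h2ba, which encodes the testis form of H2B, and Hist2h2bb. Hist1h2ba read -1.70, -1.73 and -1.58 on the mimic arrays, against -2.22 and -1.66 on the scramble arrays, and scramble array 2 lay among the mimic arrays. Its difference of 0.27 had an interval of -0.23 to 0.76. Hist2h2bb, whose probe holds the stem-loop, read -2.46, -2.09 and -2.71 on the mimic arrays, against -2.57 and -2.64 on the scramble arrays, and the groups overlapped. Its difference of 0.18 had an interval of -0.33 to 0.70.

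Linker histones gave the widest range. Of 6 H1 names 3 were analysed, 1 with a positive difference and 2 with a negative one. Hist1h1b encodes the H1.5 linker, and its probe reads within the coding sequence (chr13:21871923-21871982, mm9, minus strand).
Hist1h1b: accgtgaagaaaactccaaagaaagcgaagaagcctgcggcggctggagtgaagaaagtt
Its level was -3.15, -3.75 and -3.16 on the mimic arrays, against -4.45 and -5.90 on the scramble arrays. All mimic arrays lay above both scramble arrays, and the scramble arrays were the farthest apart of any member. The probe was well above background in both files of each mimic array and of scramble array 1, and in neither file of scramble array 2. The fitted difference was 1.82 ± 0.44 (SE), with an interval of 0.73 to 2.91 and a limma adjusted p of 0.077, and it rests in part on the level of scramble array 2, which was not well above background. Against scramble array 1, where the probe was measured, the difference was 1.10, with an adjusted p of 0.13. Normexp background correction gave 0.90 over both scramble arrays, with an adjusted p of 0.031.

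Hist1h1c and Hist1h1e, which encode the H1.2 and H1.4 linkers, went the other way without passing the test. Hist1h1c read -0.56, -0.20 and -0.75 on the mimic arrays, against -0.23 and -0.18 on the scramble arrays, a difference of -0.30 with an interval of -0.78 to 0.18. Hist1h1e read 0.07, 0.07 and 0.08 on the mimic arrays, against 0.85 and -0.17 on the scramble arrays. The mimic arrays of Hist1h1e nearly coincided and fell between the scramble arrays, so the sign depended on which scramble array was used. Against scramble array 1 the difference was -0.78, and against scramble array 2 it was 0.24, with the mean over both at -0.27.

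H3 genes, which encode the core histone whose tail carries many regulatory marks, lay on both sides of 0. Of the 6 analysed, 2 differences were positive and 4 negative. The class median was -0.08, and its sign was not stable. It was 0.10 with 4 of 6 positive without scramble array 2, and -0.17 without scramble array 1. It was also above 0 with the first scan only (0.01), with quantile normalisation, with the percentile over all probes (0.08) and in the deposited value table (0.01). None was called. Every mimic array lay above every scramble array in 1 member and below in 2, where 19.8% and 25.8% of all genes did so.

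Hist1h3d had a difference near 0. Its level was 1.70, 1.80 and 1.90 on the mimic arrays, against 1.66 and 1.76 on the scramble arrays, and the groups overlapped. The difference of 0.09 had an interval of -0.25 to 0.44.

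Both H3 genes at the ends of the class were dim. Hist1h3g, a stem-loop probe, read -4.31, -4.35 and -4.67 on the mimic arrays, against -4.91 and -5.06 on the scramble arrays, and was well above background in 4 of 6 mimic and 2 of 4 scramble files. The groups did not overlap. Its difference of 0.54 had an interval of 0.12 to 0.96 and a limma adjusted p of 0.13. Hist2h3c2 read -5.07, -5.71 and -5.02 on the mimic arrays, against -4.24 and -4.47 on the scramble arrays, and was well above background in 1 of 6 mimic and 3 of 4 scramble files. All its mimic arrays lay below both scramble arrays, a difference of -0.91 with an interval of -1.52 to -0.30 and a limma adjusted p of 0.098. With the second scan alone it passed the test as lower.

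H4 genes, which encode the most conserved core histone, were on both sides of 0. Of the 8 analysed, 6 differences were positive and 2 negative, with a median of 0.34 and no call. Every mimic array lay above every scramble array in 3 members and below in 1, where 19.8% and 25.8% of all genes did so. Without scramble array 1 the class median was 0.04 with 4 of 8 positive, and without scramble array 2 it was 0.37 with 7 of 8 positive. The sign of Hist1h4j also turned under quantile normalisation, the percentile over all probes and the deposited value table, with 7 of 8 positive there.

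Hist4h4, a lone H4 gene on chromosome 6 (chr6:136752681-136752740, mm9), had the smallest adjusted p of the class. It read -0.18, -0.16 and -0.06 on the mimic arrays, against -0.71 and -0.69 on the scramble arrays. Both groups were tight and did not overlap, and both scramble arrays gave like differences, 0.58 and 0.55. The difference was 0.56 ± 0.13 (SE), a ratio of 1.48, with an interval of 0.24 to 0.89 and a limma adjusted p of 0.071. With the percentile taken over all probes, the difference was 0.72 and the adjusted p 0.047.

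Hist1h4d, in the chromosome 13 cluster, read 3.03, 3.27 and 2.90 on the mimic arrays, against 2.73 and 2.59 on the scramble arrays. The groups did not overlap, and the difference of 0.41 had an interval of 0.0005 to 0.82 and a limma adjusted p of 0.20. Its other probe gave 0.20, in the same direction.

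Hist1h4i stood at the low end of all members. It read -2.70, -2.65 and -4.15 on the mimic arrays, against -2.02 and -2.37 on the scramble arrays. Mimic array 3 lay well below the other two, and all mimic arrays lay below both scramble arrays. The difference was -0.97 with an interval of -2.14 to 0.20 and a limma adjusted p of 0.26. Both further probes of the gene also gave negative differences, -0.37 and -0.85, but neither had a like drop on mimic array 3. The first read -3.98 there, against -3.85 and -3.76 on mimic arrays 1 and 2. The second read -4.03, against -4.31 and -4.84. The chosen probes of Hist1h4i and Hist2h3c2 were the only 2 of the analysed members taken from cDNA clones, and each ends in a run of 6 A bases, as 1.19% of all probes do. Without these probes the median difference of the members was 0.35.

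**Figure D2:**
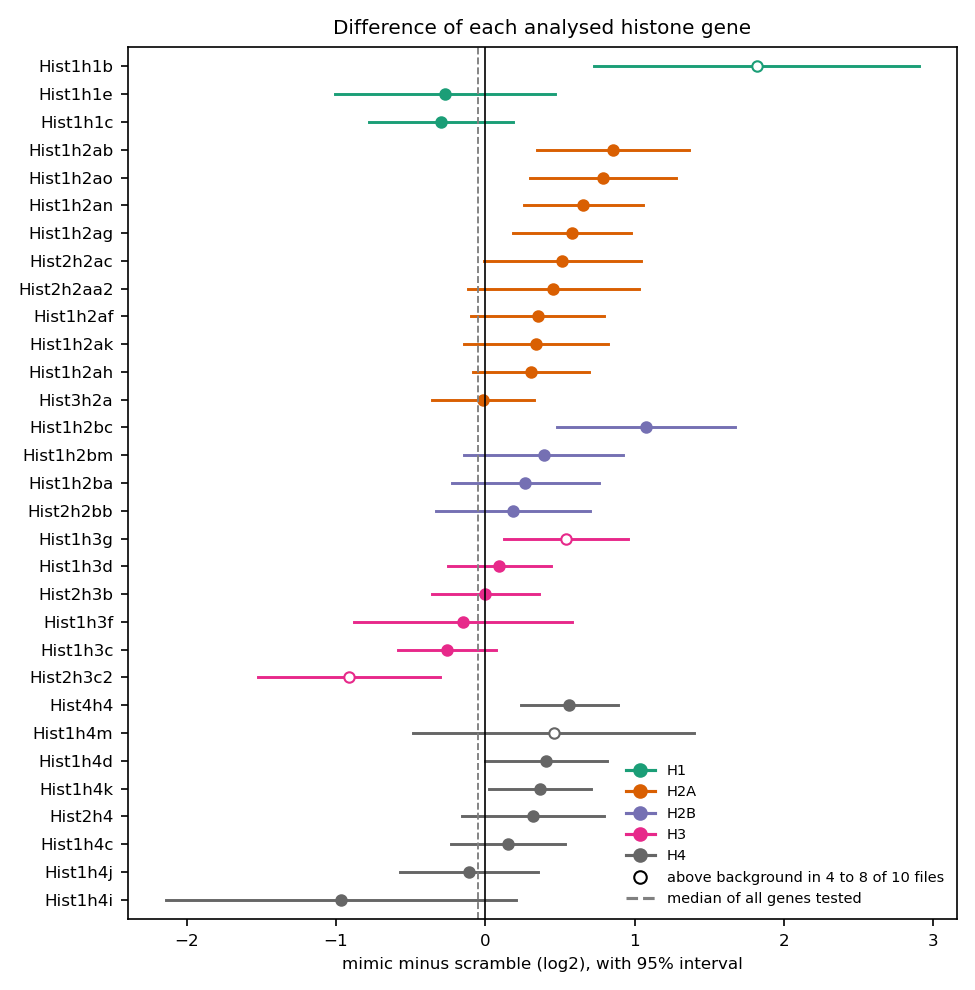
Points give the difference mimic minus scramble on the log2 scale with its 95% interval from limma, genes run down the page by class, and open points mark the 4 members well above background in 4 to 8 of 10 files. Intervals of most H2A, H2B and H4 genes lie mainly right of 0, and those of Hist2h3c2 and Hist1h4i mainly left.

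By position the signs were mixed in each cluster. The Hist1 cluster on chromosome 13 had 34 names and 23 analysed members, with 17 positive and 6 negative differences and a median of 0.35. The Hist2 cluster on chromosome 3 had 8 names and 6 analysed members, with 4 positive and 2 negative differences and a median of 0.25. Within chromosome 13, the 10 members between 21814057 and 22132738 (mm9) had a median of 0.38 with 8 positive. The 12 between 23626113 and 24025870 had a median of 0.21, also with 8 positive. No difference between clusters was tested.

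The members were also set out by what their probe reads, and no difference between these groups of probes was tested. Of the 8 probes that end in an in-frame stop codon, 7 had every mimic array above every scramble array, where 19.8% of all genes did so, and the median was 0.36. However, 5 of these 8 are the near-identical H2A probes. The 3 stem-loop probes were all positive, with a median of 0.46, of which 2 were well above background in only some files. Among the other 20 probes, 12 were positive and 8 negative, with a median of 0.21. Counting near-identical probes once, by their mean and with Hist1h2ao apart, moved the median over members to 0.29.

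For 6 genes the array held more than 1 probe, and in 4 of them, Hist1h2ak, Hist1h4d, Hist1h4i and Hist1h4k, the further probes had the sign of the chosen one. The second probe of Hist2h4 gave -0.40 against 0.32 for the chosen one, but was well above background in 0 files. The second probe of Hist2h2bb gave 0.68 beside 0.18. It was well above background in 4 mimic and 0 scramble files, so it passed the filter through mimic files alone and was not counted with the 4. The second probes of Hist1h2ak (0.38 beside 0.34) and Hist1h4k (0.23 beside 0.37) were detected in all files.

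The 14 members that were not analysed were Hist1h1a, Hist1h1d, Hist1h1t, Hist1h2aa, Hist1h2bb, Hist1h2be, Hist1h2bp, Hist1h2bq, Hist1h3a, Hist1h3i, Hist1h4h, Hist2h2ab, Hist2h2be and the pseudogene Hist3h2bb-ps. For 11 of them no file was well above background. Hist1h1t and Hist1h2aa, which encode testis histones, were among those. Just outside the threshold of 4 files, Hist1h1a and Hist1h3i reached it in 2 files and Hist1h4h in 1. Their mimic arrays spanned -5.31 to -5.07, -5.67 to -5.05 and -6.81 to -5.73, against -5.61 to -4.91, -5.90 to -5.49 and -5.88 to -4.42 on the scramble arrays. Just inside, at 4 files, stood Hist1h4m and Hist2h3c2. Hist1h4m read -5.09, -4.64 and -5.02 on the mimic arrays, against -6.01 and -4.74 on the scramble arrays.

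The scramble arrays disagreed with each other about as much as the groups did. The median absolute gap between them was 0.33 for the members and 0.36 for all genes. In 14 of the 31 members this gap was larger than the difference between mimic and scramble, and no share over all genes is given for this count. The mean of the mimic arrays exceeded scramble array 1 for 26 members and scramble array 2 for 20, where 46.7% and 45.0% of all genes did so. It exceeded both for 19 members, where 29.9% of all genes did so, and lay below both for 4, where 38.2% of all genes did so. Without scramble array 1 the median difference of the members was 0.24, and without scramble array 2 it was 0.32. Either fit leaves 1 scramble array, so its spread comes from the mimic arrays alone. Without any 1 mimic array no member was called, where 47 to 139 of all genes were. With all 10 files treated as separate arrays, 13 members were called higher and 2 lower, while 1966 of 13004 genes were called higher and 2532 lower.

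**Figure D3:**
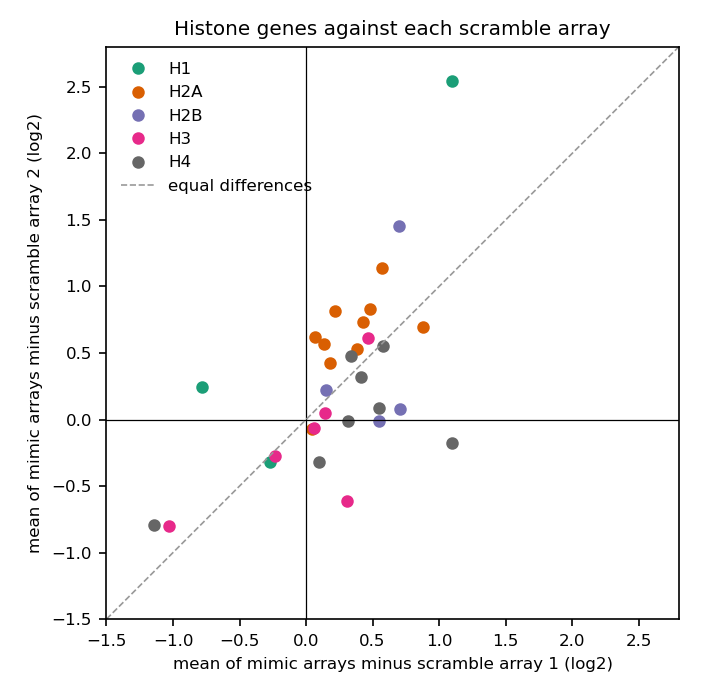
Each point is 1 of the 31 members, coloured by class; the horizontal axis gives the mean of the 3 mimic arrays minus scramble array 1 and the vertical axis the same minus scramble array 2, both on the log2 scale. H2A points lie above the dashed line of equal differences except for Hist1h2ao and Hist3h2a, and 19 points lie in the upper right, above both scramble arrays.

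The scaling of the arrays also moved the differences. With the 75th percentile taken over all probes the median of all genes shifted by 0.16, and that of the members stood at 0.50, so members minus all genes was 0.39 under both, since this scaling shifts all genes alike. In that scaling 494 genes were called higher and 233 lower, beside 361 higher and 309 lower in the main one. Under normexp correction the same gap was 0.29. There Hist1h3g stood at 0.17 and Hist2h4 at 0.43, beside 0.54 and 0.32 in the main scaling.

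The promoters of the members were read from RefSeq (GRCm38.p6), from 250 bases before to 50 after each start, and 28 of the 31 analysed members matched. Motifs were searched on both strands. TATAAA, the TATA box, was in 14 of the 28 and in 13.6% of all 32851 promoters. CCAAT was in 82.1% against 37.4% of all, in every H1, H2A, H2B and H3 promoter matched and in 2 of 7 of H4. The octamer ATTTGCAT, the binding sequence of Oct1, which Pou2f1 encodes and which acts on H2B genes, was in 3 of 3 H2B promoters, 4 of 10 H2A and none of the others, against 1.74% of all promoters. AAACACA, known from H1 promoters, was in 3 of 3 H1, 2 of 3 H2B and 1 of 10 H2A promoters, against 7.18% of all. The 150 bases before the start of Hist1h1b, the member with the largest difference in the main fit (Hist1h2bc had it under normexp correction), are printed with these motifs in capitals (chr13:21780626-21780775, GRCm38.p6, minus strand).
Hist1h1b promoter: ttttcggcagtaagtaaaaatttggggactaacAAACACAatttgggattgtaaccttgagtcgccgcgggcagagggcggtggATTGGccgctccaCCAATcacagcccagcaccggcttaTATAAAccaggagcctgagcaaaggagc
A match describes the letters only. All 3 H1 promoters held both AAACACA and CCAAT. Their differences were 1.82, -0.27 and -0.30, and a relation between motifs and differences was not tested.

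Genes that act on histone mRNA or with histone proteins were set beside the members as 4 lists. Among S phase genes, 30 of 34 were tested, and 3 rose while 0 fell, where 2.76% of all genes rose and 2.36% fell. The list had 23 positive differences and a median of 0.26, beside -0.05 for all genes. Pola1, the catalytic subunit of the DNA polymerase that begins each strand, read -2.38, -2.38 and -2.50 on the mimic arrays, against -3.52 and -3.70 on the scramble arrays. Its difference was 1.19 ± 0.14 (SE), a ratio of 2.28, with a limma adjusted p of 0.012. Ccna2, the cyclin of S phase, read -0.44, -0.38 and -0.23 on the mimic arrays, against -1.38 and -1.19 on the scramble arrays, and rose by 0.94 with a limma adjusted p of 0.028. Tk1, the thymidine kinase of cycling cells, read -0.51, -0.41 and -0.44 on the mimic arrays, against -1.08 and -1.28 on the scramble arrays, and rose by 0.73 with a limma adjusted p of 0.045. In all 3 the groups did not overlap. None of these 3 calls held when any 1 mimic array was left out.

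The factors that transcribe, process and degrade histone mRNA made up the second list. Of 25 genes 22 were tested, 8 with a positive difference (36.4%, beside 45.3% of all genes) and 14 with a negative one, a median of -0.18 and no call. The smallest p was that of Srrt, which encodes a cap-binding complex partner, with -4.12, -4.60 and -4.25 on the mimic arrays, against -3.33 and -2.43 on the scramble arrays. Its groups did not overlap, and the difference of -1.44 had a limma adjusted p of 0.055. Slbp itself was dim, at -4.21, -5.01 and -4.54 on the mimic arrays, against -4.46 and -4.39 on the scramble arrays, and was well above background in 2 of 6 mimic and 3 of 4 scramble files.

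Histone chaperones, which carry histones to and from DNA, showed 9 positive and 13 negative differences among 22 of 24 genes tested, a median of -0.20 and no call. Ipo4, an importin that carries newly made histones into the nucleus, had the smallest p, with -1.41, -1.49 and -1.35 on the mimic arrays, against -0.97 and -0.45 on the scramble arrays. Its difference of -0.71 had a limma adjusted p of 0.097. The replication-independent histones are mostly, but not all, made from polyadenylated mRNAs and also outside S phase. They had 7 positive and 3 negative differences among 10 of 11 tested, a median of 0.24 and no call. H2afx, the variant phosphorylated at DNA breaks, had the smallest p. It lay between -1.03 and -0.93 on the mimic arrays, against -1.54 and -1.63 on the scramble arrays, a difference of 0.60 with a limma adjusted p of 0.063.

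**Figure D4:**
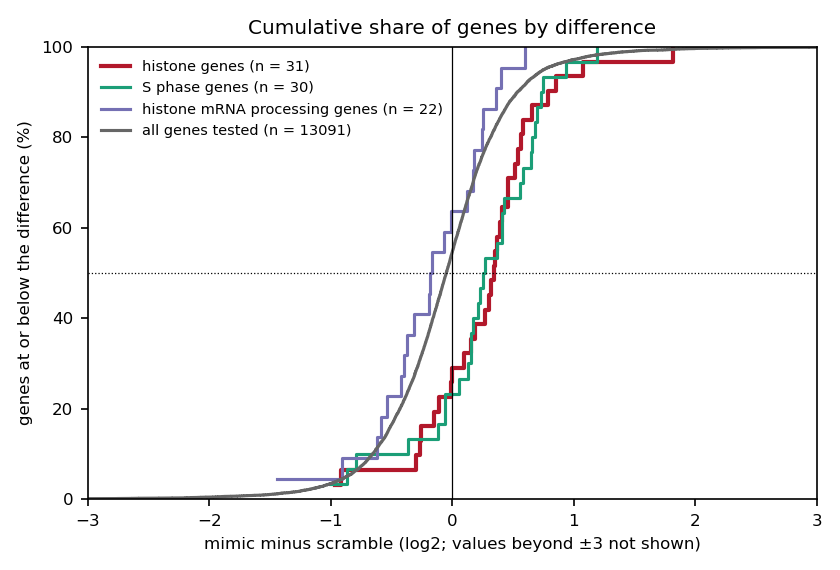
The horizontal axis gives the difference mimic minus scramble on the log2 scale and the vertical axis the percentage of genes at or below it, for the 31 members, 30 S phase genes, 22 histone mRNA processing genes and all 13091 genes tested. The curves of histone and S phase genes run right of that of all genes through most of the range, with medians of 0.34 and 0.26 beside -0.05.

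Among markers of the cells themselves, only the myocyte list held calls. Of 6 myocyte genes, which mark differentiation, 5 fell (Myog, Tmem8c, Myh3, Tnnt2 and Acta1), where 2.36% of all genes fell. Ckm did not pass the test. The summed level of the 6 was 2.66 to 2.89 on the mimic arrays, against 4.35 and 4.50 on the scramble arrays. Myog, the regulator that commits myoblasts to differentiate, read 0.32, 0.46 and 0.50 on the mimic arrays, against 2.22 and 2.83 on the scramble arrays. Of 6 myoblast genes 4 were detected and 0 were called, with a summed level of 2.48 to 2.71 on the mimic arrays, against 2.89 and 3.52 on the scramble arrays. Myod1 (-1.26), Des (-0.87) and Cdh15 (-0.70) had every mimic array below both scramble arrays, where 25.8% of all genes did. Vcam1 had a positive difference (0.24), and its groups overlapped. Myf5 and Pax7 did not pass the filter on dim probes. Of 3 leukocyte genes, Ptprc did not pass it either, and the sum over Cd68 and Cd3e was -2.79 to -2.74 on the mimic arrays, against -3.05 and -2.99 on the scramble arrays. All endothelial, epithelial and germ cell markers listed stayed below the filter. The part of the myocyte markers in the histone differences was not tested.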

How the data were processed

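The deposited scanner files held linear spot intensity from 1-colour Cy3 arrays. Per the file headers it is the processed signal of Agilent Feature Extraction 12.0.0.7, with probe positions on mm9, while version 10.7.3.1 is named in the submitters' processing notes. A deposited value table of intensity per probe was linear and uncentred, correlated with the processed signal at a Spearman coefficient of 0.9987 to 0.9994 across probes, and served as an alternative. Its column medians were 192.1, 275.6, 260, 214.7, 252.7 and 294.2 for mimic replicates 1 to 6 and 245, 244.8, 202.9 and 214.9 for scramble replicates 1 to 4.

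Control and outlier spots (157 to 270 outliers per file) were left out, spots of a probe averaged, and log2 signals centred on the 75th percentile of the 13029 probes detected above background in every file. Files of 1 array position were averaged. Genes, 1 probe per file name, needed a probe well above background in at least 4 files, and 61 were left out for a missing array. Differences were fitted with limma 3.58.1 in R 4.3.3 and adjusted over all 13091 genes at 0.05, and the fit was tested on simulated data. Sequences were handled in Python 3.11.15. All 45 names matched RefSeq gene records, which served for names and promoters only.

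Members and lists were chosen with earlier results of these data known. Genes named with values were the called ones, the brightest member and both ends of each class, members known for tailed or testis transcripts, and in each list the called genes or the one with the smallest p. Slbp, Myog, members near the filter and those in groups of probes were added after their values were seen. Alternatives were other scalings, filters, probe rules, scans, blocks and left-out arrays.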

Additional observations from a re-analysis of the deposited data

How the results depend on the processing

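At least 1 member passed the test under 10 of 19 alternatives, each with the sign of its main value. Hist1h1e, one of these, turned to 0.24 without scramble array 1. Members called higher, 0 in the main fit, numbered 13 with all 10 files as separate arrays, where 1966 of 13004 genes were. They numbered 7 with a block for the scan plus a random block for the array (correlation 0.83), where 702 of 13004 genes were. Only 1 member was called higher with normexp correction (Hist1h1b, beside 284 of 13091 genes), and 1 with the percentile over all probes (Hist4h4, beside 494 of 13091). The same number was called with only probes above background in all files (Hist1h2bc, beside 316 of 10533) and eBayes with trend and robust settings (Hist1h2bc, beside 422 of 13091). Members called lower, also 0 in the main fit, numbered 2 with all 10 files, where 2532 of 13004 genes were. With the second scan only the number was 1 (Hist2h3c2), where 255 of 13030 genes were. Leaving out 1 mimic array gave no call among the members. Leaving out either scramble array did give calls among them, but those fits rest on 1 scramble array, so their number is not given. Leaving out any 1 array gave medians of 0.24 to 0.33, the 0.24 without scramble array 1. The cause was not tested.

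The median difference of the members, 0.34 in the main fit, was 0.23 with normexp correction, 0.40 with quantile normalisation, 0.50 with the percentile over all probes and 0.40 in the deposited value table. Counting near-identical probes once (0.29) and leaving out probes of cDNA clones (0.35) were chosen after seeing the data.

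Across the 4 linked lists, 3 genes were called higher and 0 lower in the main fit. The counts were 18 higher and 17 lower with all 10 files, 9 and 5 with the scan and position blocks, 5 and 1 with the percentile over all probes, 5 and 0 with only probes above background in all files, 0 higher with no filter on dim probes and 1 lower with trend and robust settings. Leaving out 1 array gave 0 to 16 higher and 0 to 15 lower. Without the filter, 34458 genes were tested and 17 called. Over all genes, 670 calls in the main fit stood beside 4498 with all 10 files, 1455 with the scan and position blocks, and 47 to 4340 with 1 array left out.

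The replicate numbers of the labels do not match across the groups, since number 3 is a first scan for the mimic and a second scan for the scramble. Deviations of same-numbered files correlated at 0.38, -0.04, -0.35 and -0.11. These values cannot settle whether samples were paired, because number 3 joins unlike scans. Number 1 of the scramble files was the only one whose best correlation was with the mimic file of its own number. With the replicate number as a block on all 10 files, 7 members were called higher and 1 lower (Hist2h3c2). Over all 13004 genes, 868 were called higher and 1075 lower, and in the linked lists 8 and 7. Signals near background limit Hist1h1b, Hist1h3g, Hist1h4m and Hist2h3c2.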
